A study of Mus musculus with 16 samples.

Results

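In RNA of the gut muscle, 10 genes tied to macrophages were followed. They were the growth factor Csf1, its receptor Csf1r, the complement chains C1qa, C1qb and C1qc, and the surface genes Adgre1, Cx3cr1, Cd163, Mrc1 and Lyve1. They were chosen by gene name, and all 10 were found among the 56748 genes counted. Whether their reads came from macrophages of the muscle or of attached mucosa was not tested. RNA came from the LMMP, the longitudinal muscle with the myenteric plexus attached, which was microdissected from the proximal and the distal colon of mice aged 2 to 4 weeks. HSCR mice were homozygous for the Ednrb tm1Ywa allele (Ednrb-/-), which disrupts the endothelin B receptor gene and serves as a model of Hirschsprung disease. The study describes distal colonic aganglionosis in these mice, with few and small ganglia seen in its sections of the distal colon. WT mice were their Ednrb+/+ littermates, and both genotypes shared a hybrid C57BL6/J-129Sv background. The 4 groups, WT proximal, HSCR proximal, WT distal and HSCR distal, held 4 libraries each. The titles name the distal colon for 8 libraries whose tissue entries read proximal colon, and the titles were followed. The labels do not say which libraries, if any, share a mouse, so p-values measure only the spread between these libraries. The Ednrb allele is carried in the germline, so macrophages as well as neurons lack the receptor gene in HSCR mice.

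Muscularis macrophages lie between the muscle layers and around the myenteric ganglia, where they take up debris and exchange signals with neurons and smooth muscle. Like most tissue macrophages they depend on CSF1R, a receptor tyrosine kinase, and its ligand CSF1, which enteric neurons and several other cell types of the gut wall can make. They return BMP2, a growth factor that acts on enteric neurons. C1q, assembled from A, B and C chains, is the recognition part of the classical complement pathway and is made in many tissues mainly by macrophages.

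The 3 C1q chain genes lie side by side on the minus strand of chromosome 4, within chr4:136607440-136626114 of mm39, a stretch of 18675 bases. Their values followed each other more closely across the libraries than those of any other pair of members, so the 200 bases upstream of each transcript start are shown. They were read from the GRCm39 reference on the minus strand, with the starts of the canonical transcripts in the GENCODE vM39 annotation, and are written 5′ to 3′. Capitals mark GAGGAA on either strand, the core of many sites bound by PU.1, the myeloid transcription factor that Spi1 encodes.
C1qa: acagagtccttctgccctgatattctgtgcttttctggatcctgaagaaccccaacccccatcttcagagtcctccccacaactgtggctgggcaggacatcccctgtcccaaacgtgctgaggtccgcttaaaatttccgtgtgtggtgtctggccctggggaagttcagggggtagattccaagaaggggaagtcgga
C1qb: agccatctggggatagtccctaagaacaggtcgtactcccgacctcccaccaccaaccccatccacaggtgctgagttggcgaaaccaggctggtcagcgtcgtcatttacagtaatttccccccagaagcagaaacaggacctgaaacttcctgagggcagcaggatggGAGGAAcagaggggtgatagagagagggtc
C1qc: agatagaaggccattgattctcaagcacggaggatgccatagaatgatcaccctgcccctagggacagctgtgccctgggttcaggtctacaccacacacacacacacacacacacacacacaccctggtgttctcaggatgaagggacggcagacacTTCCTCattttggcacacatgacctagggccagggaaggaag
The C1qa window lies at chr4:136626162-136626361 and held no GAGGAA. The C1qb window, at chr4:136613512-136613711, held 1 copy, from 30 to 25 bases upstream of the start. In the C1qc window, at chr4:136620377-136620576, 1 copy lay on the other strand, where it reads TTCCTC, from 42 to 37 bases upstream. GAGGAA occurs on either strand in 18.8% of the 200-base windows of 21757 genes, beside 2 of the 3 shown. TGANTCA, the motif bound by AP-1 factors, occurs in 4.94% of the windows and in none of the 3 shown. The motif search describes the sequence and was not tested against any value.

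Between 21384372 and 45831881 reads were counted on genes in each library, and mitochondrial genes took 4.32% to 49.8% of them. CPM stands for counts scaled to a common library size, after correction by the trimmed mean of M-values (TMM). Smooth muscle genes were abundant in every library, with Actg2 (enteric smooth muscle actin) at 986 to 25477 CPM. HSCR proximal 2 held the least Actg2, against at least 4154 CPM in each of the others, and the most Krt19 (a keratin of epithelium and mesothelium), at 2341 CPM. Ednrb measured 64.5, 33.8, 67.1 and 53.01 CPM in the WT proximal libraries, 7.84, 11.9, 37.4 and 35.3 CPM in the HSCR proximal, 11.8, 15.7, 29.5 and 42.98 CPM in the WT distal and 94.7, 5.43, 6.10 and 9.48 CPM in the HSCR distal libraries. The library labelled HSCR distal 1 thus had the highest Ednrb of all 16, and it also held 218 CPM of the neuronal gene Uchl1, against 1.96 to 25.2 CPM in the other HSCR distal libraries. HSCR proximal 1 had 11.6 CPM of Uchl1, against 36.1 to 214 CPM in the other HSCR proximal libraries. WT distal 1 had 23.4 CPM of Uchl1, against 82.2 to 312 CPM in the other WT distal libraries, and the lowest Ednrb of its group. HSCR distal 1 and WT distal 1 thus go against their labels in these genes, and HSCR proximal 1 holds few neuronal reads for its segment. HSCR proximal 2 does so too. The mean log2 CPM of 10 enteric neuron genes was 1.31 and 1.40 in HSCR proximal 1 and 2, against 6.18 and 5.78 in HSCR proximal 3 and 4. Most medians and calls of the members and macrophage lists are therefore also given without HSCR distal 1, WT distal 1 or HSCR proximal 1. Leaving out HSCR proximal 2 is given for fewer of them. Reads on Ednrb cannot show whether the targeted exon was lost. The library names follow a different pattern for replicates 1 and 2 of each group than for replicates 3 and 4. In replicates 1 and 2 the name ends in a number that libraries of the same replicate share across the 4 groups. Names of replicates 3 and 4 share no such number. Among replicates 3 and 4, the names of WT proximal 3 and 4 and HSCR proximal 4 begin with CM, and the others with LC. What the names stand for is not given. Where the name pattern is used below, CM and LC names count as 1 pattern.

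Each member was detected in all 16 libraries, with 40 to 11175 reads. Levels between genes were compared as FPKM, which divides by gene length. C1qb and C1qa had the highest median levels over the 16 libraries, at 25.01 and 24.6 FPKM. Lyve1 followed at 20.05 FPKM and C1qc at 11.8 FPKM. Csf1 and Csf1r were close to each other, at 4.63 and 4.32 FPKM. Mrc1 stood at 3.22, Adgre1 at 2.46, Cx3cr1 at 1.84 and Cd163 at 1.22 FPKM. The ranges of neighbors in this order overlapped over the libraries in every case. The genes were measured in the same libraries, so this overlap does not show whether neighbors differ within a library. C1qb alone ran from 11.1 to 88.4 FPKM and Lyve1 from 3.62 to 82.5 FPKM.

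**Figure D1:**
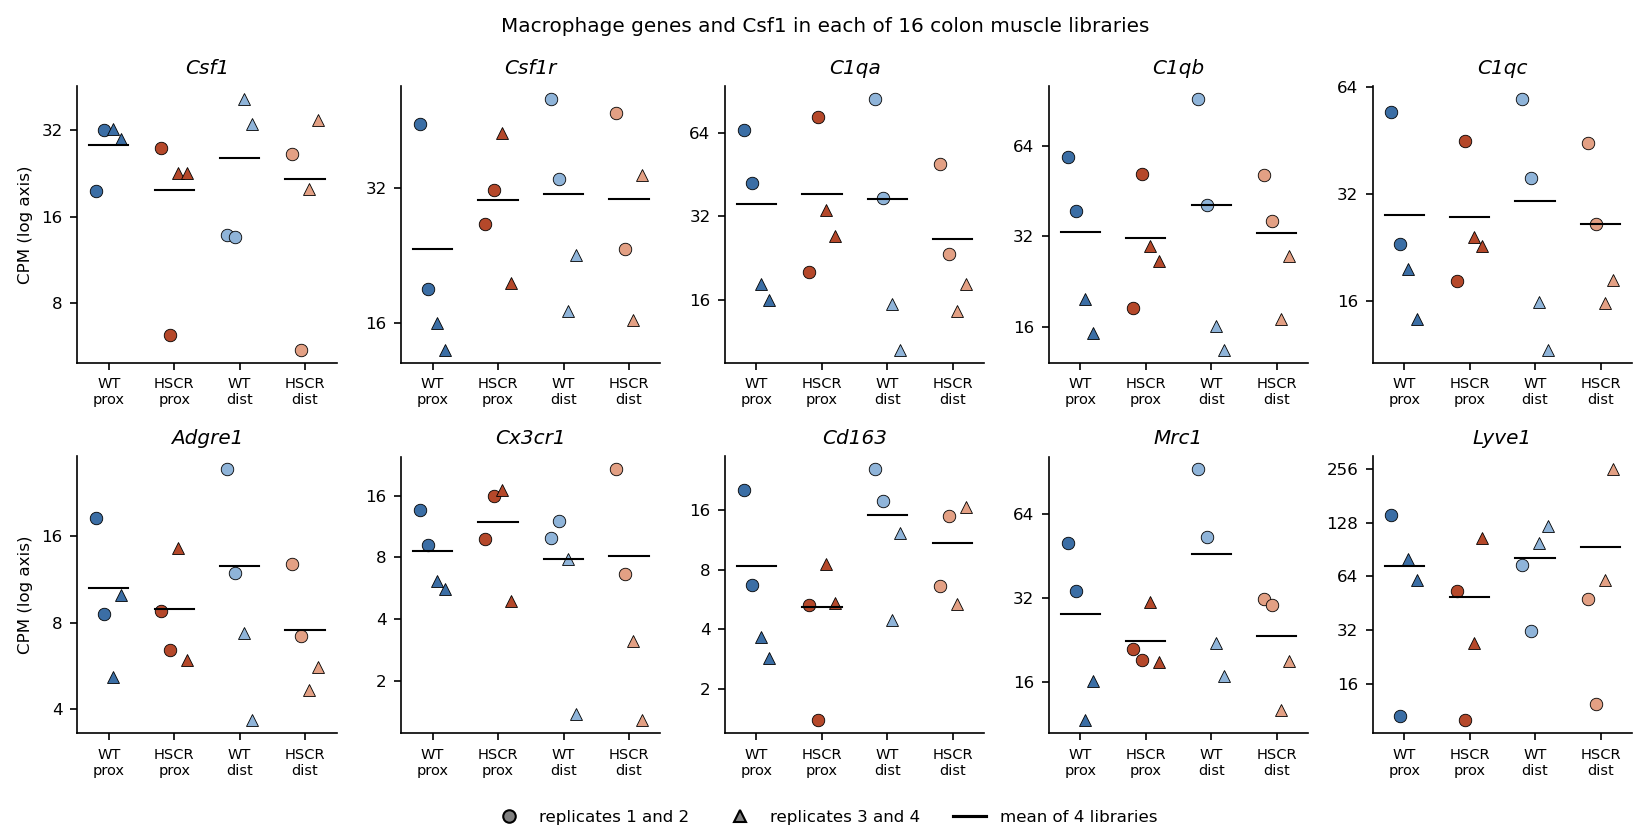
CPM of each of the 10 genes in every library (vertical log axis), by group, with circles for replicates 1 and 2, triangles for replicates 3 and 4 and a black line at the mean of the 4 libraries. In no panel do the 4 HSCR libraries of a segment lie wholly above or below the 4 WT libraries, and for the 3 C1q chains the circles lie mostly above the triangles.

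Csf1 (chr3:107648364-107667785, minus strand, mm39) encodes the ligand. It measured 19.7, 32.2, 32.3 and 29.9 CPM in the WT proximal libraries 1 to 4 and 27.8, 6.19, 22.7 and 22.8 CPM in the HSCR proximal libraries. The distal values were 13.7, 13.5, 41.3 and 33.6 CPM in WT and 26.4, 5.47, 19.9 and 34.8 CPM in HSCR. Replicate 2 was the lowest library in both HSCR groups, below every WT library, while the other HSCR libraries lay inside the WT range. The means were 28.5 ± 6.004 CPM in WT proximal and 19.9 ± 9.43 CPM in HSCR proximal libraries (SD, n = 4 each). Fitted with edgeR's quasi-likelihood test, the proximal HSCR minus WT difference was -0.54 on the log2 scale (SE 0.43, 95% interval -1.50 to 0.43, adjusted p = 0.819). Without HSCR proximal 2 it was -0.24 (edgeR, adjusted p = 0.884). Under a likelihood ratio test with 4 RUVr factors, the kind of model the Methods name, Csf1 was the only member to pass in the proximal colon, with -0.65 and an adjusted p of 0.0369, and that model called 3462 of 16664 genes. In the distal colon the difference was -0.23 (SE 0.58).

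Csf1r encodes the receptor and lies on chromosome 18. The gene overlaps Hmgxb3 on the opposite strand, and the strand setting of the counting is not given in the sources used here. The proximal values were 44.5, 19.003, 15.995 and 13.9 CPM in WT and 26.7, 31.8, 42.6 and 19.6 CPM in HSCR. In the distal colon they were 50.7, 33.5, 16.99 and 22.7 CPM in WT and 47.04, 23.4, 16.2 and 34.3 CPM in HSCR. WT proximal 1 stood above the other WT proximal libraries, and WT and HSCR overlapped in both segments. Of the 10 members Csf1r spanned the narrowest range, 3.65-fold between the highest and the lowest library. Its fitted proximal difference was 0.34 (SE 0.43, 95% interval -0.63 to 1.31) and its distal difference -0.03 (SE 0.46, 95% interval -1.07 to 1.02).

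C1qa encodes the A chain. Its CPM were 65.8, 42.2, 18.2 and 15.99 in WT proximal, 20.2, 72.9, 33.7 and 27.1 in HSCR proximal, 85.3, 37.3, 15.4 and 10.5 in WT distal and 49.5, 23.4, 14.6 and 18.2 in HSCR distal libraries. WT distal 1 was the highest and WT distal 4 the lowest of all 16, an 8.10-fold gap inside 1 group. C1qb, the B chain, was at 58.97, 38.8, 19.7 and 15.3 CPM in WT proximal, 18.5, 51.7, 29.8 and 26.5 in HSCR proximal, 91.97, 40.8, 16.1 and 13.4 in WT distal and 51.01, 36.1, 16.97 and 27.4 in HSCR distal libraries. For C1qc, the C chain, the values were 54.6, 23.2, 19.7 and 14.3 CPM in WT proximal, 18.2, 45.2, 24.2 and 22.9 in HSCR proximal, 59.5, 35.5, 15.9 and 11.7 in WT distal and 44.7, 26.4, 15.9 and 18.4 in HSCR distal libraries. The 3 chains ranked the libraries nearly alike. Group means of C1qb lay within 0.08 of each other on the log2 scale and those of C1qc within 0.10, while the SD between libraries of a group was 0.90 and 0.81. Group membership accounted for 0.136% of the variance of log2 CPM of C1qb, 0.330% for C1qc and 4.92% for C1qa. Within a library the ratio of C1qa to C1qb FPKM varied 2.17-fold and that of C1qc to C1qb 1.67-fold, against 6.86-fold for the CPM of C1qb itself.

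Adgre1 (chr17:57665691-57790527) encodes F4/80, an adhesion receptor widely used to mark mouse macrophages. It measured 18.5, 8.62, 5.18 and 9.98 CPM in WT proximal and 8.77, 6.43, 14.6 and 5.97 CPM in HSCR proximal libraries. In the distal colon it was at 27.4, 11.9, 7.40 and 3.66 CPM in WT and 12.8, 7.22, 4.66 and 5.64 CPM in HSCR. WT distal held both the highest and the lowest library. Cx3cr1, the fractalkine receptor of monocytes and many tissue macrophages, was at 13.6, 9.13, 6.13 and 5.62 CPM in WT proximal, 9.77, 15.9, 17.1 and 4.87 in HSCR proximal, 9.98, 11.96, 7.87 and 1.38 in WT distal and 21.5, 6.60, 3.13 and 1.28 in HSCR distal libraries. Replicate 4 was the lowest Cx3cr1 library of every group, and the library labelled HSCR distal 1 was the highest of all. Without that library the distal HSCR minus WT difference of Cx3cr1 went from 0.08 to -1.11 on the log2 scale, and neither passed the test. The deposited span of Cx3cr1 (chr9:119730682-119898945, mm39) takes in 5 other protein-coding genes, among them Wdr48 and Csrnp1, so some of its reads may be shared.

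Cd163 (chr6:124281615-124307486) and Mrc1 (chr2:14234203-14336868) encode a hemoglobin scavenger receptor and the mannose receptor, both used to mark resident macrophages. Cd163 was at 20.2, 6.71, 3.65 and 2.85 CPM in WT proximal, 5.30, 1.38, 8.55 and 5.40 in HSCR proximal, 25.8, 17.8, 4.44 and 12.3 in WT distal and 6.65, 14.9, 5.39 and 16.6 in HSCR distal libraries. It had the largest difference between segments of the 10 genes when all libraries were used, 0.87 in WT (SE 0.74, 95% interval -0.79 to 2.52) and 1.08 in HSCR (SE 0.62, 95% interval -0.33 to 2.48), distal minus proximal, and the groups overlapped in both genotypes. Without both HSCR libraries 1 the HSCR difference was 1.26, and Cx3cr1 then had the larger one, at -1.78. Without WT distal 1 the WT difference was 0.44, and without WT proximal 1 it was 1.83. With all libraries neither passed (edgeR, adjusted p = 0.920 and 1.00), and under the RUVr model the WT difference did, at 0.94 with an adjusted p of 0.0189. That model called 3186 of 16566 genes in this comparison. Mrc1 measured 50.6, 34.01, 11.6 and 16.03 CPM in WT proximal, 20.96, 19.2, 31.1 and 18.8 in HSCR proximal, 93.1, 53.1, 22.03 and 16.7 in WT distal and 31.6, 30.1, 12.6 and 19.1 in HSCR distal libraries. WT distal 1 and 2 stood above all 8 HSCR libraries, and WT distal 3 and 4 lay among them. Its distal HSCR minus WT difference of -0.99 (SE 0.59, 95% interval -2.33 to 0.35) did not pass (edgeR, adjusted p = 1.00), and without WT distal 1 it was -0.39.

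Lyve1 (chr7:110449814-110462446), a hyaluronan receptor of lymphatic endothelium and of some resident macrophages, varied most. It measured 141, 10.6, 79.7 and 61.5 CPM in the WT proximal and 53.3, 10.02, 27.1 and 106 CPM in the HSCR proximal libraries. The distal values were 74.2, 31.5, 98.2 and 122 CPM in WT and 47.8, 12.4, 61.1 and 255 CPM in HSCR. The lowest library, HSCR proximal 2, and the highest, HSCR distal 4, were 25.5-fold apart. Replicate 2 was the lowest library in each of the 4 groups. Its SD within groups was 1.47 on the log2 scale, the widest of the members, and the 95% interval of its distal HSCR minus WT difference ran from -1.57 to 2.00.

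The first question was whether macrophage genes differ between HSCR and WT colon in each segment. In the proximal colon 0 of the 10 genes passed edgeR's quasi-likelihood test at a Benjamini-Hochberg adjusted p under 0.05, against 0.0% of the 16664 genes tested, and 0 of 10 reached an unadjusted p under 0.05, against 6.62%. DESeq2 called 0 of 10 as well, with 190 genes called in all. In direction 7 genes were lower in HSCR, against 46.8% of all genes, and 3 higher, with a median difference of -0.18 on the log2 scale beside 0.04 for all genes. The largest shift was that of Cd163, -0.74 (SE 0.75), and C1qa, C1qb and C1qc lay at 0.10, -0.09 and -0.03, with 95% intervals of -1.18 to 1.37, -1.20 to 1.03 and -1.12 to 1.05. Without HSCR proximal 1, 0 of 10 passed and the median was -0.08, with 5 genes lower. Without HSCR proximal 2, which stands apart in Actg2 and Krt19, C1qa, C1qb and C1qc were at -0.43, -0.44 and -0.39.

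In the distal colon 0 of 10 passed the same test, against 0.0% of 17059 genes, and 0 of 10 had an unadjusted p under 0.05, against 2.64%. DESeq2 called 0 of 10, with 22 genes in all. In direction 8 genes were lower in HSCR, against 46.1% of all genes, and 2 higher, with a median of -0.27 beside 0.04 for all genes. After Mrc1, the lowest were Adgre1 at -0.74 (SE 0.65) and C1qa at -0.50 (SE 0.70). Without the library labelled HSCR distal 1, 9 genes were lower, the median was -0.62 beside 0.03 for all genes, and 0 of 10 passed. Mrc1 then stood at -1.18, Adgre1 at -1.14 and C1qa at -1.01. Without WT distal 1 the direction turned for several genes: 4 were lower and 6 higher, with a median of 0.20. Mrc1 was then at -0.39, C1qa at 0.33 and C1qb at 0.49, and Adgre1 at -0.01. Without both of these libraries, a choice made after the data were seen, 7 genes were lower, the median was -0.15 and 0 of 10 passed. The biological coefficient of variation, the relative SD between libraries of a group, was 0.715 in the proximal and 0.737 in the distal fit, and bulk RNA cannot tell fewer macrophages from less of a gene's RNA in each macrophage.

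The second question was whether the segments differ within a genotype. In WT mice 0 of 10 members passed between distal and proximal colon, against 0.0181% of 16566 genes. In direction 8 members were higher in the distal colon, against 51.7% of all genes, and 2 lower, with a median of 0.23, and 0 of 10 had an unadjusted p under 0.05, against 5.23%. WT distal 1 was the highest of the 16 libraries for Csf1r, the 3 C1q chains, Adgre1, Cd163 and Mrc1. Without it 5 members were higher and 5 lower (median -0.13), with 0 of 10 passing, and C1qa, C1qb and C1qc stood at -0.75, -0.50 and -0.41, against 0.11, 0.33 and 0.17 with it. In HSCR mice 0 of 10 passed, against 0.0% of 17086 genes, and 0 of 10 had an unadjusted p under 0.05, against 1.49%. The HSCR median was 0.04, with 6 higher in the distal colon, against 47.1% of all genes, and 4 lower. Leaving out both HSCR libraries 1 moved it to -0.40, with 3 higher and 7 lower, and C1qa, the only member with an unadjusted p under 0.05 then, to -1.27 (edgeR, adjusted p = 0.920).

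Whether the genotype difference itself differed between segments was tested over all 16 libraries. None of the 10 members passed (0.0% of 18619 genes did), and 0 of 10 had an unadjusted p under 0.05, against 1.44%. Estimates ran from -0.65 for Mrc1 (SE 0.79) to 0.83 for Lyve1 (SE 1.22). Of the members 7 were below 0, as were 53.3% of all genes. Without both HSCR libraries 1 the median went from -0.32 to -0.80, with 0 of 10 passing. Without WT distal 1 it was 0.25, again with 0 passing. DESeq2 called 0 of 10 members between the segments of either genotype and for the interaction. No member had groups that did not overlap in any of the 4 pairwise comparisons, where 4.78% (proximal genotype), 1.83% (distal genotype), 4.26% (WT segments) and 1.27% (HSCR segments) of all genes did. Every 95% interval held 0, and all but those of Csf1r and Mrc1 between the HSCR segments reached past 1 log2 unit in at least 1 direction.

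**Figure D2:**
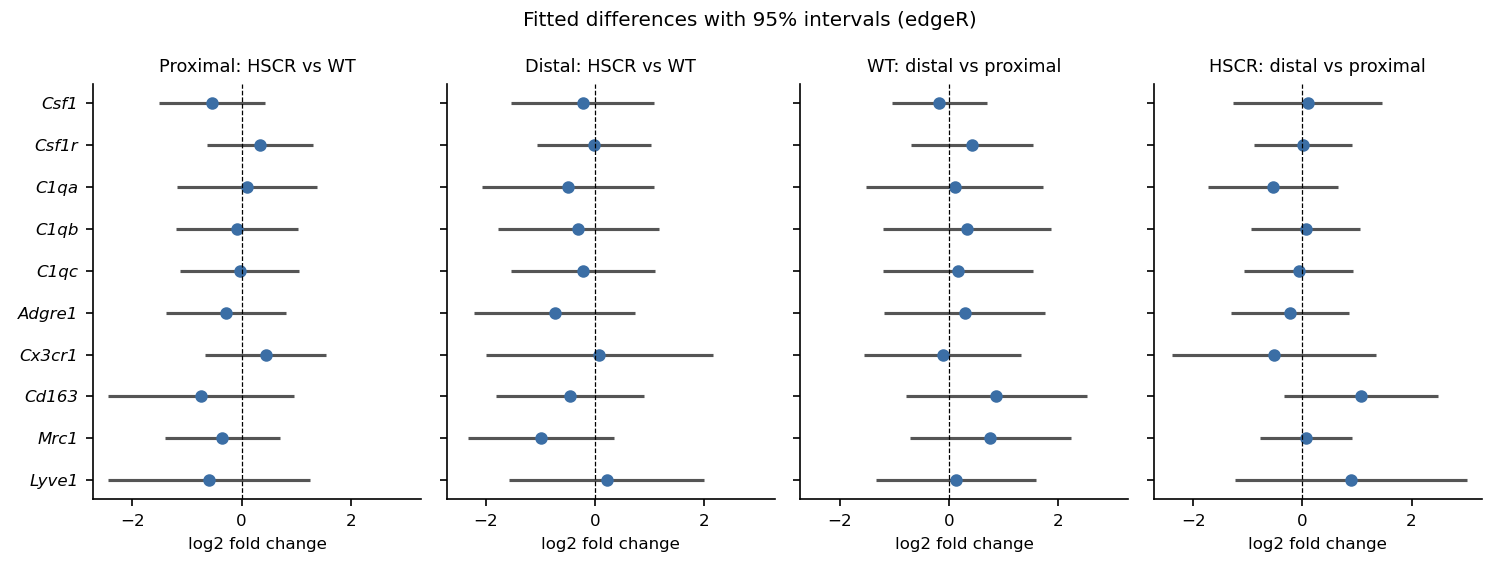
Fitted log2 fold change of each gene (points) with its 95% interval (bars) from edgeR in the 4 pairwise comparisons, second group minus first, so that HSCR or distal colon lies to the right of 0 where higher. Every interval crosses the dashed line at 0.

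Other genes of the pathway were listed by function. Of 14 further genes of CSF1 receptor signaling and macrophage transcription, 0 passed in any of the 5 comparisons. Their medians were 0.09 in the proximal and -0.44 in the distal genotype comparison. In the proximal colon 8 were higher and 6 lower, against 46.8% of all genes lower. In the distal colon 3 were higher and 11 lower, against 46.1% lower. The proximal median was 0.27 without HSCR proximal 1 and -0.37 without HSCR proximal 2, and the distal median -0.38 without HSCR distal 1 and 0.25 without WT distal 1. Il34, which encodes the other ligand of CSF1R, averaged 4.62 ± 2.09 CPM in WT proximal and 3.69 ± 2.03 CPM in HSCR proximal libraries (SD, n = 4 each), with fitted HSCR minus WT differences of -0.33 (proximal) and 0.22 (distal). Spi1, encoding PU.1, was at 40.03, 12.5, 2.54 and 2.71 CPM in WT distal and 5.87, 9.59, 2.77 and 2.90 CPM in HSCR distal libraries, where WT distal 1 stood far above the rest (difference -1.46, SE 0.93). Grb2, an adaptor of receptor tyrosine kinases that most cells express, was the most abundant gene of this list per length, with 86.3 to 108 CPM in WT proximal and 91.9 to 109 CPM in HSCR proximal libraries.

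Among 16 other macrophage and pan-leukocyte genes 0 passed in any comparison. In proximal HSCR 13 were higher and 3 lower (median 0.39), against 46.8% of all genes lower. In distal HSCR 4 were higher and 12 lower (median -0.23), against 46.1% lower. An unadjusted p under 0.05 (edgeR) was reached by 2 of 16 in the proximal comparison, each higher in HSCR, against 6.62% of all genes. In the distal comparison 0 of 16 reached it, against 2.64%. Both directions turned when 1 library was left out. The proximal median was 0.64 without HSCR proximal 1 and -0.11 without HSCR proximal 2, and the distal median -0.70 without HSCR distal 1, 0.93 without WT distal 1 and 0.59 without both. Lyz2, the macrophage lysozyme and the most abundant of them per length, averaged 78.03 ± 43.1, 94.01 ± 14.6, 108 ± 103 and 93.03 ± 42.4 CPM in WT proximal, HSCR proximal, WT distal and HSCR distal libraries (SD, n = 4 each). Ptprc (CD45, on all leukocytes) stayed between 0.60 and 10.5 CPM, and Cd68, a lysosomal protein of macrophages, between 1.91 and 22.1 CPM, both highest in WT distal 1. The interaction estimate was below 0 for 15 of the 16 genes, with a median of -0.76 beside -0.05 for all genes, and 0 of 16 passed or had an unadjusted p under 0.05. That median was -1.42 without both HSCR libraries 1 and 0.38 without WT distal 1.

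A further list held genes tied to resident muscularis macrophages, some of which other cells of the gut wall also express. Of the 13 listed, 11 could be tested in the proximal genotype comparison. There 9 were lower in HSCR (median -0.53), against 46.8% of all genes. In the distal genotype comparison 9 of 13 were lower (median -0.56), against 46.1% of all genes, and 0 passed in either. In HSCR mice 10 of 13 were higher in the distal than in the proximal colon (median 0.97), against 47.1% of all genes. In WT mice 10 of 12 tested were higher (median 0.74), against 51.7%, and 0 passed in either genotype. An unadjusted p under 0.05 (edgeR) was reached by 2 of 11 in the proximal genotype comparison, against 6.62% of all genes. Between the HSCR segments 2 of 13 reached it, against 1.49%. In the distal genotype comparison 1 of 13 did (2.64%), and between the WT segments 0 of 12 (5.23%). The proximal genotype median was -0.50 without HSCR proximal 1 and -0.97 without HSCR proximal 2. Between the HSCR segments the median was 1.05 without both HSCR libraries 1. WT distal 1 had the highest mean log2 CPM of this list among the 16 libraries, at 3.49, against 1.36 to 3.13 in the other WT distal libraries. For this list the WT segment and distal genotype medians are not given without WT distal 1, so their steadiness is not shown. Bmp2, which also marks other cell types, measured 8.47, 2.64, 5.80 and 4.67 CPM in WT proximal and 6.64, 29.2, 8.29 and 9.99 CPM in HSCR proximal libraries, a fitted difference of 1.32 (SE 0.59, adjusted p = 0.747, edgeR). Its highest value, 34.4 CPM, was in HSCR distal 3 and its second highest, 29.2 CPM, in HSCR proximal 2, the HSCR libraries with the most Krt19 in their segments. Pf4, the most abundant gene of the list per length, averaged 12.7 ± 7.36 CPM in WT proximal and 12.3 ± 8.05 CPM in HSCR proximal libraries.

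Downstream of C1q, 9 of 11 genes of the classical complement pathway could be tested in the proximal genotype comparison, 6 higher and 3 lower in HSCR (median 0.19, and 0.24 without HSCR proximal 1), and 0 passed. Serping1, the C1 inhibitor, was the most abundant per length, at 137 ± 53.7 CPM in WT proximal and 121 ± 71.4 CPM in HSCR proximal libraries. Monocyte, neutrophil and dendritic cell genes were scarce: 5 of 12 passed the filter on low counts in the proximal comparison. Plac8, the most abundant of them per length and also made by epithelium, reached 389.99 CPM in HSCR proximal 2.

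Several marker lists of other cell types had medians farther from 0 than the members in both segments. They were those of epithelium, enteric neurons, enteric glia, adipocytes and mesothelium. Glial genes had medians of -1.78 (proximal) and -1.15 (distal), with 5 of 6 lower in HSCR in each segment. Adipocyte medians were -0.75 and 2.02, and mesothelial medians 0.29 and 0.80. Epithelial genes were higher in HSCR for 10 of 10 genes in both segments, with medians of 2.90 (proximal) and 1.18 (distal), and their mean log2 CPM ran from -2.53 to 7.23 in WT proximal, 3.53 to 9.65 in HSCR proximal, 2.99 to 6.66 in WT distal and 2.65 to 8.73 in HSCR distal libraries. Enteric neuron genes were lower in HSCR for 9 of 10 genes in the proximal colon (median -2.11) and 9 of 9 tested in the distal colon (median -2.24). The 7 smooth muscle genes had medians of -0.38 and 0.14. Without HSCR proximal 1 the proximal medians were 3.25 (epithelium), -1.71 (neurons) and -0.38 (smooth muscle), and without HSCR distal 1 the distal ones 1.54, -5.15 and 0.15. Without HSCR proximal 2 the proximal epithelial median was 1.04, and without WT distal 1 the distal epithelial and neuronal medians were 2.85 and -2.62. None of the genes of these lists passed the adjusted test in any comparison (edgeR). In the proximal comparison 5 of 10 neuronal, 5 of 6 glial and 2 of 10 epithelial genes had an unadjusted p under 0.05. So did 2 of 5 adipocyte, 1 of 5 mesothelial and 0 of 7 smooth muscle genes, against 6.62% of all genes. In the distal comparison 0 of 9 neuronal, 1 of 6 glial and 0 of 10 epithelial genes did. Of adipocyte, mesothelial and smooth muscle genes 0 of 5, 0 of 5 and 0 of 7 did there, against 2.64% of all genes. Their part in the values of the macrophage genes was not tested.

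Across the 16 libraries the members fell into groups that moved together. The r values below are Pearson correlations of log2 CPM over 16 libraries, which share depth, tissue composition and group, and they are given as a description. The C1q chains were the most alike, with r of 0.95 to 0.96, and kept r of 0.98 (A and B), 0.97 (A and C) and 0.96 (B and C) after each group's mean was taken away. Csf1r followed them at 0.72 to 0.77, and Adgre1 followed Mrc1 at 0.86. Each C1q chain had an r of 0.91 to 0.95 with the mean of the 16 other macrophage genes. Cd163 stood apart from them, at 0.11 with that mean and -0.16 with Cx3cr1, although it followed Mrc1 at 0.68. Per unit of C1q, the mean FPKM of the 3 chains, Csf1r varied 3.70-fold over the libraries and Mrc1 4.32-fold, against 43.9-fold for Cd163 and 68.8-fold for Lyve1. HSCR proximal 2, at 72.9 CPM of C1qa, had the lowest mean log2 CPM of the smooth muscle genes (8.28). It also had the highest of the epithelial genes (9.65). HSCR distal 3, the next highest in epithelial genes (8.73), held 14.6 CPM of C1qa. The part of attached mucosa in the C1q values was not tested.

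**Figure D3:**
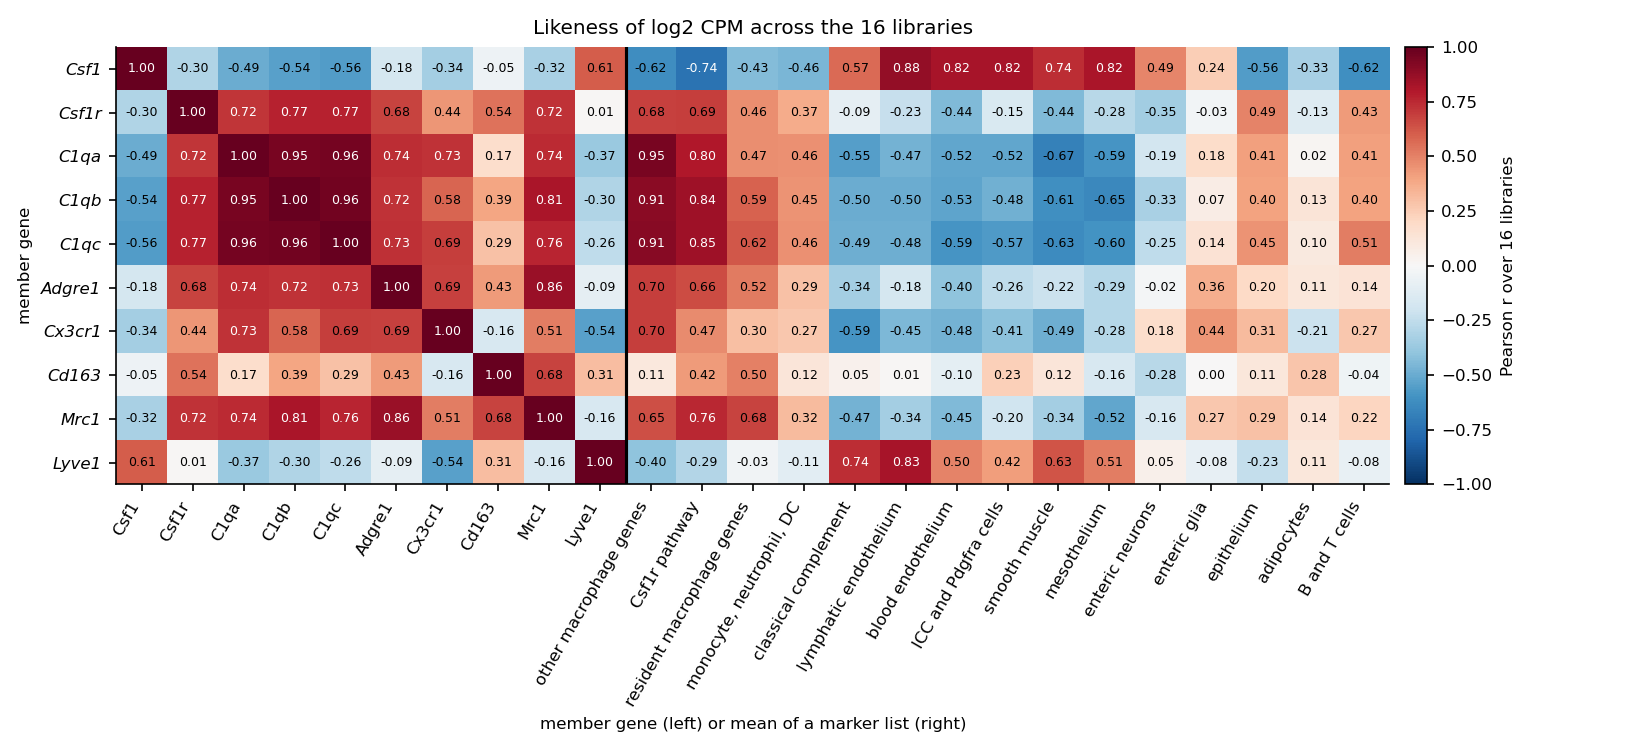
Pearson r of log2 CPM over 16 libraries between each of the 10 genes (rows) and the other members (left of the black line) or the mean log2 CPM of a marker list (right of it), red for positive and blue for negative. The C1q chains form a red block with Csf1r, Adgre1, Mrc1 and the other macrophage genes, while Csf1 and Lyve1 are red with lymphatic endothelium instead.

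Lyve1 and Csf1 were high in other libraries than the C1q chains. Lyve1 had an r of -0.37, -0.30 and -0.26 with C1qa, C1qb and C1qc and 0.83 with the mean of 6 lymphatic endothelial genes (Spearman's rho 0.78). That r was 0.69 without the 2 libraries farthest from the median of the list. Lyve1 was lower on average in replicates 1 and 2 than in 3 and 4, by -1.40 on the log2 scale. So were the lymphatic endothelial genes (median -1.17) and the smooth muscle genes (median -1.28). The part of this shared difference in the r was not tested. Ccl21a, a lymphatic chemokine and the most abundant gene of the list per length, averaged 194 ± 79.7 CPM in WT proximal and 42.5 ± 28.8 CPM in HSCR distal libraries (SD, n = 4 each). Lyve1 FPKM ranged from 1.36 times to 50.2 times that of Adgre1.

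Csf1 had a negative r with each C1q chain, -0.49 with C1qa, -0.54 with C1qb and -0.56 with C1qc, and -0.30 with Csf1r. With the marker lists its r was 0.88 for lymphatic endothelium, 0.82 for blood endothelium, 0.82 for interstitial cells of Cajal and Pdgfra+ cells, 0.82 for mesothelium and 0.74 for smooth muscle. Against lymphatic endothelium it was 0.68 without the 2 libraries farthest from that list's median, HSCR proximal 2 and HSCR distal 2, which were also the lowest in Csf1. The mesothelial value did not hold within replicates 3 and 4, where it was -0.67, and the smooth muscle value fell to 0.17 there (8 libraries). Csf1 and enteric neurons had an r of 0.49, below those for endothelium. The FPKM ratio of Csf1 to Csf1r varied 12.5-fold, from 0.213 in HSCR proximal 2 to 2.66 in WT distal 3. Leaving out both HSCR libraries 1 gave 0.89 for Csf1 and lymphatic endothelium and 0.95 for C1qa and the other macrophage genes.

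**Figure D4:**
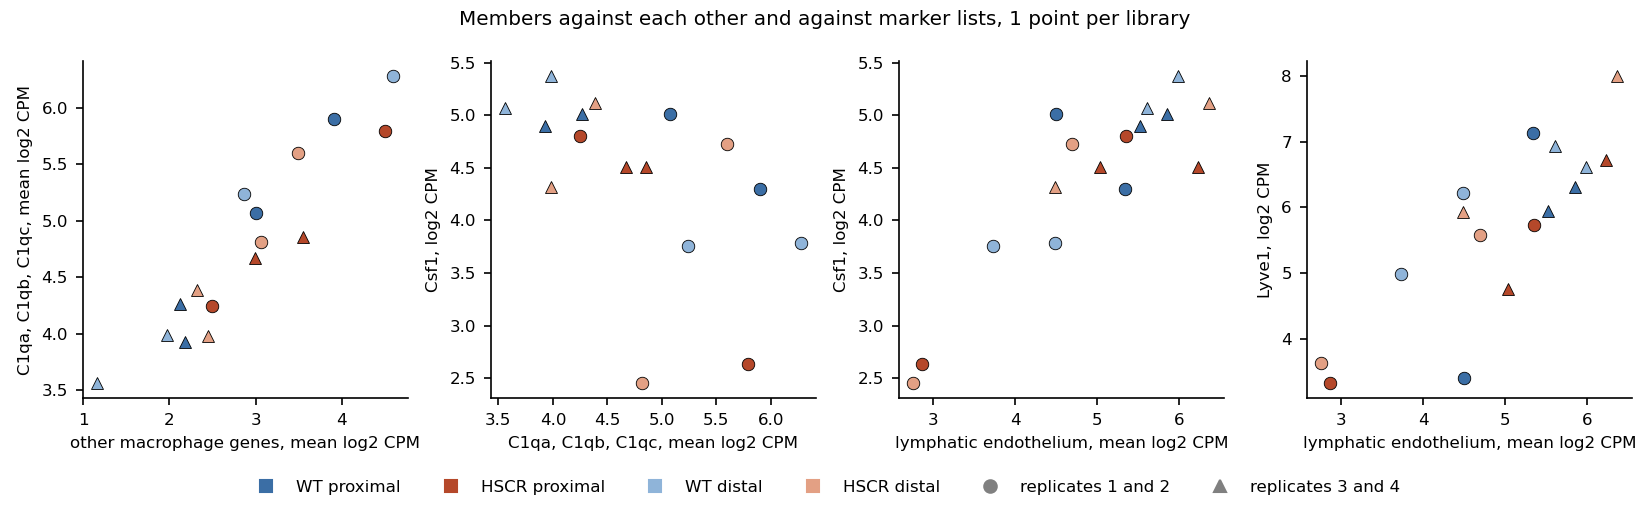
Each point is 1 library, with color for the group and shape for the replicates, and axes are log2 CPM of a gene or the mean log2 CPM of a list. C1q is high where the other macrophage genes are high (left), Csf1 is not high where C1q is (second panel), and Csf1 and Lyve1 are high where lymphatic endothelial genes are (both right panels), with HSCR proximal 2 and HSCR distal 2 lowest in the lymphatic genes.

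Over 18609 other genes, those whose log2 CPM was most like the mean of the 3 C1q chains were Laptm5 (r of 0.94), Pilra (0.92), H2-Eb1 (0.92), Fcer1g (0.91) and Msr1 (0.91), over 16 libraries. Laptm5 and Fcer1g are leukocyte genes, H2-Eb1 encodes a class II antigen presenting chain and Msr1 a macrophage scavenger receptor. For Csf1 they were Pcdhb20 (0.95), Gm37090 (0.93), Eml5 (0.93), Slc39a13 (0.93) and Tmem255a (0.92). Pcdhb20 belongs to a cluster of near-identical protocadherin genes that can share reads, so its value is uncertain. No macrophage gene was among these 5.

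For most members the replicates of a group held an order of their own. The 8 libraries numbered 1 and 2 held 20.2 to 85.3 CPM of C1qa with a median of 45.8, against 10.5 to 33.7 CPM with a median of 17.1 in the 8 libraries numbered 3 and 4. Csf1r, C1qa, C1qb, C1qc and Cx3cr1 (5 of 10) were higher on average in replicates 1 and 2 within all 4 groups, which 9.77% of 18619 genes were, and Csf1 and Lyve1 (2 of 10) were lower within all 4, which 20.6% of genes were. Adgre1, Cd163 and Mrc1 were higher in replicates 1 and 2 in 3 of the 4 groups and lower in HSCR proximal, at -0.31, -1.32 and -0.27. For Cd163 the name pattern accounted for 5.76% of the variance of log2 CPM and the 4 groups for 28.7%, while for C1qa these shares were 53.2% and 4.92%. The 4 groups take up more variance by chance than the name pattern, which has fewer levels, so these shares are not on equal terms. On the log2 scale the mean difference, replicates 1 and 2 minus 3 and 4, was 1.29 for C1qa, 1.16 for C1qb, 1.03 for C1qc and 1.42 for Cx3cr1, and -0.92 for Csf1 and -1.40 for Lyve1, beside a median of -0.23 over all genes. No member separated the 8 from the 8 without overlap, as 0.591% of genes did. These differences were looked at after the values were seen, carry no test, and come from a grouping by library name and not from the study's groups.

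Other lists differed along the same line. Of the 16 other macrophage genes 15 were higher on average in replicates 1 and 2 (median 1.23), as were 10 of 10 epithelial genes (median 2.15). All 7 smooth muscle genes were lower in replicates 1 and 2 within each of the 4 groups (median -1.28), and all 6 lymphatic endothelial genes were lower on average (median -1.17). The mitochondrial share of reads ran from 5.56% to 49.8% in replicates 1 and 2 and from 4.32% to 34.6% in replicates 3 and 4. The part of any of these in the macrophage values was not tested. Compared within replicates 1 and 2 and within replicates 3 and 4 separately, the genotype difference had the same sign in both for 4 of 10 members in the proximal and 3 of 10 in the distal colon. Each of these differences sets 2 libraries against 2. Those within replicates 1 and 2 include the doubtful libraries 1 and HSCR proximal 2, which is low in neuronal genes. Within replicates 3 and 4 the WT segment difference sets CM names against LC names, so name and segment cannot be told apart there. In the proximal genotype and HSCR segment differences within replicates 3 and 4 the CM and LC names are also unevenly spread. For C1qa the proximal HSCR minus WT difference was -0.46 within replicates 1 and 2 and 0.82 within replicates 3 and 4, for C1qb -0.63 and 0.69, and for Cd163 -2.10 and 1.07. Csf1 was lower in HSCR in both, at -0.94 and -0.45 in the proximal and at -0.18 and -0.50 in the distal colon. The segment difference had the same sign in both for 5 of 10 members in WT and 4 of 10 in HSCR mice, Cd163 among them in each.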

How the data were processed

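Poly-A RNA of 16 LMMP libraries was sequenced, and the protocol describes strand-specific and unstranded preparations alike. Per the labels and Methods, the authors used HISAT2 2.2.1 for alignment to mm39 and featureCounts 2.0.6 with a GENCODE model for gene counts. The authors deposited raw counts and FPKM values for each library. Their own normalized values, fold changes and p-values for the groups were not used. The 10 genes and the lists were chosen with earlier results of these data known.

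Counts were tested with edgeR 4.0.16 in R 4.3.3 (glmQLFit and glmQLFTest, TMM scaling, filterByExpr) on the 8 libraries of a comparison, or on all 16 for the interaction between genotype and segment, with Benjamini-Hochberg adjustment over all genes tested and a threshold of 0.05. The fits were also run on simulated counts with known changes, and the share recovered is not reported here. Log2 CPM used a prior count of 0.5, and intervals are 95%. DESeq2 1.42.0 was an alternative, as were a likelihood ratio test with 4 RUVr factors, upper quartile scaling, no filter, mitochondrial genes removed, 1 fit of all libraries, the replicate block, a term for the library name pattern, plain CPM and leaving out libraries. Of 56748 genes 23907 had no count. No 2 libraries were identical. Genes of each list were named where they passed the test, and otherwise by the highest mean FPKM. Ednrb, Il34, Spi1, Ptprc, Cd68 and Bmp2 were always named (1 further gene of this rule is not reported here), and so were the 5 genes most correlated with C1q and with Csf1. Library totals of 21384372 to 45831881 gave 40 reads or more for each of the 10 genes in each library, so counting error is small beside the spread between libraries.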

Additional observations from a re-analysis of the deposited data

Results flagged for a closer look

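Among 40 sets of 4 libraries (10 genes in 4 groups), 1 library stood far from the others of its group by Dixon's ratio, a test that chance passes in about 1 of 20 groups. Csf1r measured 44.5 CPM in WT proximal 1, against 13.9 to 19.0 CPM in the other WT proximal libraries, with a ratio of 0.833 that lies just over the 95% limit. In CPM without TMM scaling the value was 29.0 and the ratio 0.416, under the limit. WT proximal 1 held the most mitochondrial reads of the 16 libraries (49.8%) and had a TMM factor of 0.652, and the part of either in the value was not tested. Without WT proximal 1 the proximal HSCR minus WT difference of Csf1r was 0.88 on the log2 scale, against 0.34 with it (edgeR, adjusted p = 0.437 and 0.879).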

How the results depend on the processing

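Of the 10 genes, 0 passed in each of the 5 comparisons under DESeq2, upper quartile normalization, no filter on low counts, mitochondrial genes removed, 1 fit of all 16 libraries, the library name pattern as a term and the omission of any 1 library or of both HSCR or both distal libraries 1. Under the RUVr model 1 gene passed between proximal HSCR and WT, Csf1 at -0.65, and 1 between the WT segments, Cd163 at 0.94. The cause was not tested. Plain CPM moved no group mean of a gene by more than its SD, which is a wide bound where the SD is near the mean. The mean of Lyve1 in WT proximal libraries went from 73.2 CPM (SD 53.9) to 57.3 in plain CPM. Of the values recomputed under settings that keep every library or leave out a pair of libraries 1, 382 kept their sign and their side of the threshold, 2 passed it and 36 changed sign, none of the 36 called. Under the RUVr model the fold changes with the opposite sign were C1qc 0.027 (proximal HSCR minus WT), C1qb 0.058, Cx3cr1 -0.28 and Lyve1 -0.42 (distal HSCR minus WT), C1qa -0.23, C1qb -0.024, C1qc -0.063 and Adgre1 -0.048 (WT distal minus proximal), Csf1r -0.050 and Mrc1 -0.064 (HSCR distal minus proximal) and C1qb 0.059 and C1qc 0.012 (the interaction). With the replicate number as a block the fold changes with the opposite sign were C1qb 0.062 and C1qc 0.11 (proximal HSCR minus WT), C1qb 0.012, Cx3cr1 -0.31 and Lyve1 -0.43 (distal HSCR minus WT), C1qa -0.15 (WT distal minus proximal) and Csf1r -0.057 and Mrc1 -0.010 (HSCR distal minus proximal). With the library name pattern as a term the fold changes with the opposite sign were C1qb 0.092 and C1qc 0.077 (proximal HSCR minus WT), Csf1r 0.058, Cx3cr1 -0.38 and Lyve1 -0.13 (distal HSCR minus WT), C1qa -0.094 (WT distal minus proximal) and Csf1r -0.013, C1qb -0.029 and Mrc1 -0.022 (HSCR distal minus proximal). With upper quartile normalization the fold changes with the opposite sign were Csf1r -0.015 (HSCR distal minus proximal). Without both HSCR libraries 1 the fold changes with the opposite sign were Csf1r -0.36, C1qb -0.44 and Mrc1 -0.17 (HSCR distal minus proximal). Without both distal libraries 1, a choice made after seeing the data, the fold changes with the opposite sign were C1qb 0.16, Cx3cr1 -0.98 and Cd163 0.072 (distal HSCR minus WT). Same-numbered libraries were not taken as pairs, since the labels do not say which share a mouse. In no pair of groups did all 4 correlations of their deviations from the group means exceed 0.1. Library names share a number only within replicate 1 and within replicate 2. A check over all 4 replicates therefore cannot show whether replicates 1 and 2 alone are paired. The correlations ran from -0.21 to 0.43 over all pairs of groups. WT proximal against WT distal came closest, at 0.096 to 0.42, with 3 over 0.1 and 6 of 8 libraries most like the one of their own number, against 0 to 4 of 8 in the other pairs of groups. With the replicate block 0 of 10 genes passed in each comparison. Leaving out each library in turn changed the sign of 71 values, none of them called, and kept 409. For proximal HSCR minus WT they ran from -0.44 to 0.36 (C1qb), -0.39 to 0.54 (C1qc), -0.59 to 0.15 (Adgre1), -1.07 to 0.22 (Cd163), -0.61 to 0.12 (Mrc1) and -0.43 to 0.60 (C1qa). For distal HSCR minus WT they ran from -0.34 to 0.32 (Csf1r), -1.01 to 0.33 (C1qa), -0.62 to 0.49 (C1qb), -0.62 to 0.33 (C1qc), -1.03 to 0.55 (Lyve1), -0.56 to 0.11 (Csf1) and -1.11 to 0.43 (Cx3cr1). For WT distal minus proximal they ran from -0.42 to 0.23 (Cx3cr1), -0.25 to 0.70 (Lyve1), -0.75 to 0.62 (C1qa), -0.41 to 0.75 (C1qc), -0.51 to 0.024 (Csf1), -0.50 to 0.80 (C1qb) and -0.47 to 0.73 (Adgre1). For HSCR distal minus proximal they ran from -0.30 to 0.24 (Csf1r), -0.25 to 0.39 (C1qb), -0.24 to 0.44 (Csf1), -0.47 to 0.27 (C1qc), -0.14 to 0.29 (Mrc1), -0.63 to 0.10 (Adgre1) and -0.36 to 1.60 (Lyve1). For the interaction they ran from -0.69 to 0.69 (Cd163), -0.67 to 0.58 (C1qb), -0.75 to 0.36 (C1qc), -1.18 to 0.23 (C1qa), -0.92 to 0.27 (Adgre1), -0.015 to 0.64 (Csf1) and -0.41 to 1.55 (Lyve1). Over all genes the edgeR, DESeq2 and RUVr fits called 0, 190 and 3462 in the proximal and 0, 22 and 1544 in the distal genotype comparison, 3, 48 and 3186 between the WT segments, 0, 5 and 358 between the HSCR segments and 0, 6 and 312 for the interaction. The library name pattern gave 4 in the proximal comparison, and the replicate block 1 between the WT segments. Without the filter the median of all genes stood at 0.19 in the proximal comparison and 0.14 between the WT segments. With 40 or more reads for each gene in every library, the spread between libraries set the width of the intervals more than depth did.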
